A study of Mus musculus with 4 samples.

Results

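Melanin is made in pigment cells from tyrosine. Tyrosinase catalyses the first steps of the pathway inside a specialised organelle, the melanosome, 2 related enzymes act further along it, an amyloid-forming matrix protein gives the organelle its fibrils, and membrane transporters set its ion content. In the eye the pathway runs in the retinal pigment epithelium, which forms from the optic cup, and in melanocytes of the iris and choroid, which come from the neural crest, and in both the transcription factor MITF drives it. The genes described here are 10 genes of this pathway, chosen by symbol, out of 18702 listed genes. They are the enzyme genes Tyr, Tyrp1 and Dct, the melanosome protein genes Pmel and Mlana, the transporter genes Oca2, Slc45a2 and Slc24a5, the receptor gene Gpr143 and the regulator gene Mitf.

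Gene expression had been measured by RNA sequencing of total RNA from eye tissue of C57BL/6 mouse embryos in 4 libraries. Libraries 1 and 2 of the wild type (Anp32b+/+) were compared with libraries 1 and 2 of the knockout (Anp32b−/−). ANP32B is an acidic nuclear phosphoprotein that binds histones, and the title of the series links its loss to repression of PAX6 and to poor growth of the eye. The labels used here give neither age nor sex of the embryos, nor how many went into a library, nor how the null allele was made. Whether libraries 1 and 2 come from different embryos is likewise unstated, and the p-values therefore describe spread that may be purely technical. Values are FPKM, that is, fragments per kilobase of transcript scaled to the fragments of the whole library. From the steps between low values, depth was estimated at 18050000 to 18220000 fragments per library. The targeted gene Anp32b had 163.18 and 179.12 FPKM in wild-type libraries and 94.53 and 92.67 FPKM in knockout libraries, so it was lower in both knockout libraries, as the labels have it, though still present as RNA. Crystallin genes of the lens took 15.0% and 14.9% of the wild-type FPKM sums, and 1.43% of the sum in both knockout libraries.

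Start-site windows of 300 bases, 250 before and 50 after the start, were in the RefSeq table of GRCm38 for 6 of the 10 genes, Tyr, Tyrp1, Dct, Mitf, Oca2 and Slc24a5. The windows of the 3 enzyme genes are shown because these genes are the textbook targets of MITF and share a motif. Capitals mark CATGTG on either strand and the 9-base motif TCATGTGCT, the core of the element named the M-box, which contains CATGTG.
Tyr, chr7:87493463-87493762, minus strand: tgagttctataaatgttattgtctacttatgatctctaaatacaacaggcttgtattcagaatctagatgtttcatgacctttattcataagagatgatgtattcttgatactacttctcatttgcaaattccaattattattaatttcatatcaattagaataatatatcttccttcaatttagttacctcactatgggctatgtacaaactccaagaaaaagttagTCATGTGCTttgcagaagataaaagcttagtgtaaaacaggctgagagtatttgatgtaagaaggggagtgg
Tyrp1, chr4:80833963-80834262, plus strand: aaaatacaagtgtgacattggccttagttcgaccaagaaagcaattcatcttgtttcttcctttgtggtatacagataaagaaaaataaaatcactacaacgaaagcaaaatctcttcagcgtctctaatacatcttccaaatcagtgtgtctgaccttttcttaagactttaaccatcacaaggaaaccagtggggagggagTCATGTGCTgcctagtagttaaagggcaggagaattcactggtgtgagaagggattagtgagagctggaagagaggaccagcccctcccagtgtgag
Dct, chr14:118052197-118052496, minus strand: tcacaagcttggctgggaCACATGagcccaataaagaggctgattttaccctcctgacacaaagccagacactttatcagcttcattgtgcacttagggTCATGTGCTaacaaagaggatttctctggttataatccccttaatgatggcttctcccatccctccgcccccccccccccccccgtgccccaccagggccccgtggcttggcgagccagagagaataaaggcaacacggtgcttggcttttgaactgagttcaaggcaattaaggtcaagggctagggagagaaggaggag
TCATGTGCT began 22 bases before the start in Tyr, 47 before it in Tyrp1 and 151 before it in Dct, each time on the coding strand. Searched on both strands, it was in 134 of 32851 windows of the table (0.408%). Because the 3 windows are shown for sharing the motif, this percentage does not test its presence in them. The shorter CATGTG was also found in Oca2 and Slc24a5, on the opposite strand, and a further copy on that strand was found in Dct. It was in 14.2% of all windows. None of the 3 windows of Mitf held CATGTG, and CACGTG, found in 7.15% of all windows, was in no window of the 6 genes. A match describes the letters only.

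9 of the 10 genes had lower values in both knockout libraries than in both wild-type libraries, and Mitf was the exception. Over all genes 32.4% were separated in that way. With limma on log2(FPKM + 1), a two-sided test adjusted by Benjamini-Hochberg over all 13887 genes whose mean reached 1 FPKM and called at an adjusted p under 0.05, 6 of the 10 fell and 0 rose. Of all genes tested, 21.1% were called lower and 33.5% higher. At an unadjusted p under 0.05, 7 members were lower and 0 higher, where 23.6% of all genes were lower and 36.6% higher. The median log2 fold change was −0.32 for the 10 genes and 0.04 for all genes tested. All 10 genes passed the filter. In bulk tissue, fewer pigment cells and less RNA per pigment cell cannot be told apart.

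**Figure D1:**
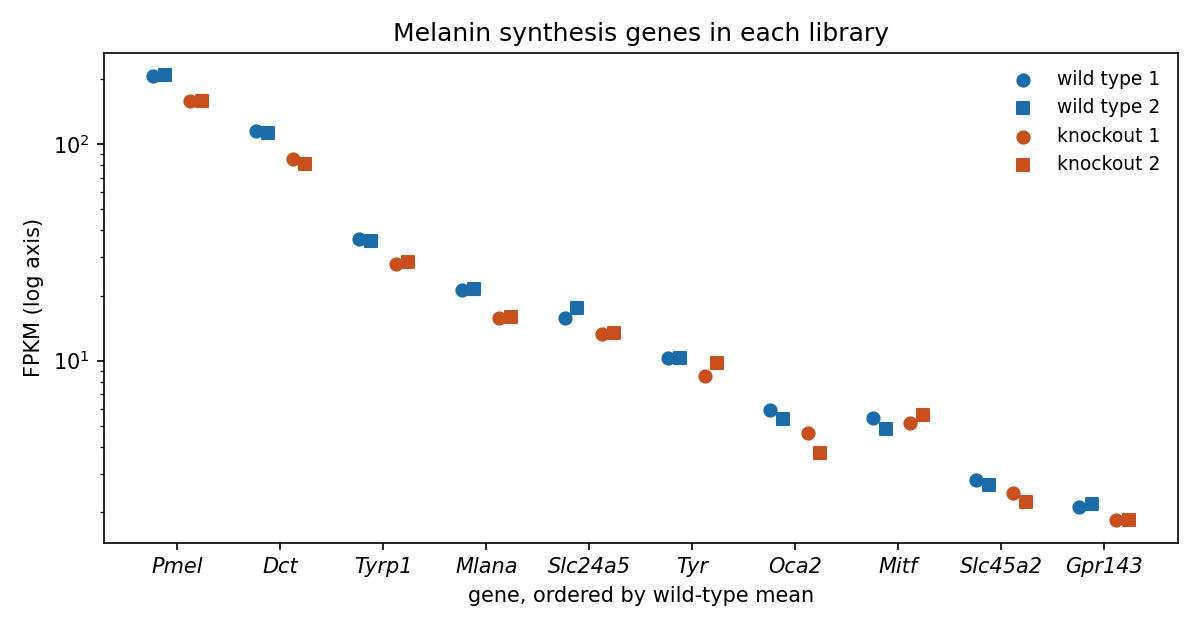
FPKM of the 10 melanin synthesis genes on a log axis, 1 point per library, with wild-type libraries in blue and knockout libraries in orange. Levels run from above 200 FPKM for Pmel to about 2 FPKM for Gpr143, and the orange points lie below the blue ones except for Mitf.

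The levels covered a wide range. Pmel and Dct led, and Slc45a2 and Gpr143 were lowest. In the wild type the order was Pmel, Dct, Tyrp1, Mlana, Slc24a5, Tyr, Oca2, Mitf, Slc45a2 and Gpr143, and among neighbours in that order only Oca2 and Mitf had overlapping values. In the knockout Mitf stood above Oca2, with no overlap, and the rest of the order was the same. The summed FPKM of the 10 genes was 422.1 and 420.9 in wild-type libraries 1 and 2, and 322.7 and 321.5 in knockout libraries 1 and 2.

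Among the enzymes, Dct and Tyrp1 fell and Tyr did not pass the threshold. Dct (Entrez 13190, GRCm38 chromosome 14, positions 118012790 to 118052244, minus strand) encodes dopachrome tautomerase, which converts dopachrome on the way to eumelanin. Wild-type libraries 1 and 2 had 115.59 and 112.67 FPKM, and the knockout libraries 85.02 and 81.42 FPKM. The knockout thus averaged 72.9% of the wild type, the lowest share among the 10 genes. The log2 fold change was −0.45 (SE 0.03, adjusted p = 4.8e-05). Tyrp1 (Entrez 22178, chromosome 4, positions 80834123 to 80851719, plus strand), for a tyrosinase-related protein that stabilises tyrosinase and acts late in eumelanin synthesis, was at 36.43 and 35.79 FPKM in the wild type and at 27.85 and 28.72 FPKM in the knockout. Its log2 fold change was −0.34 (SE 0.04, adjusted p = 0.00021). The replicates of both genes lay close together and the groups were well apart.

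Tyr (Entrez 22173, chromosome 7, positions 87424771 to 87493512, minus strand) encodes tyrosinase, the rate-limiting enzyme. It was at 10.29 and 10.33 FPKM in the wild type and at 8.48 and 9.74 FPKM in the knockout. The wild-type libraries nearly coincided, whereas knockout library 2 lay closer to the wild type than to knockout library 1. The log2 fold change was −0.17 (SE 0.07, adjusted p = 0.0742). It depended on the knockout libraries: it was −0.26 without library 2 and passed the threshold (adjusted p = 0.0294), and −0.075 without library 1 (adjusted p = 0.338). With TPM it was −0.058 (adjusted p = 0.503), and with FPKM rescaled by median of ratios −0.21 (adjusted p = 0.035). Over 12 alternatives the adjusted p ran from 0.0162 to 0.503. The groups overlapped in TPM, at 22.23 and 22.06 against 19.88 and 22.68.

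Pmel and Mlana, the genes of melanosome proteins, fell by similar amounts. Pmel (Entrez 20431, chromosome 10, positions 128704195 to 128720238, plus strand) forms the fibrils on which melanin is laid down. It was at 206.43 and 208.32 FPKM in the wild type and at 158.28 and 158.84 FPKM in the knockout (log2 fold change −0.39, SE 0.03, adjusted p = 3.7e-05). Its exons share 4.58% of their bases with Dgka and 1.48% with Cdk2 on the opposite strand. Dgka itself was higher in the knockout, at 7.53 and 8.38 FPKM against 14.63 and 14.60 FPKM, far below Pmel. Mlana (Entrez 77836, chromosome 19, positions 29697824 to 29708634, plus strand), whose product binds PMEL and helps its maturation, was at 21.23 and 21.37 FPKM in the wild type and at 15.77 and 15.99 FPKM in the knockout. This is a knockout mean of 74.6% of the wild-type mean (log2 fold change −0.40, SE 0.04, adjusted p = 0.000141). In both genes the gap between the groups was many times the difference between replicates.

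Of the 3 transporter genes, 2 fell. Slc24a5 (Entrez 317750, chromosome 2, positions 125068124 to 125088677, plus strand) encodes a potassium-dependent sodium/calcium exchanger of pigment cells. It was at 15.83 and 17.45 FPKM in the wild type and at 13.25 and 13.38 FPKM in the knockout (log2 fold change −0.30, SE 0.05, adjusted p = 0.00294). This value is uncertain, since 39.5% of its exon bases are shared with Myef2 on the opposite strand and no source used here says whether reads were counted by strand. Myef2 was more abundant, at 72.42 and 75.05 FPKM in the wild type and 68.82 and 67.71 FPKM in the knockout, and it fell as well (log2 fold change −0.11, adjusted p = 0.0232). The part of Myef2 reads in the Slc24a5 values was not tested.

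Oca2 (Entrez 18431, chromosome 7, positions 56239760 to 56536518, plus strand), for a chloride channel protein that raises melanosome pH, was at 5.89 and 5.35 FPKM in the wild type and at 4.62 and 3.76 FPKM in the knockout. The groups did not overlap, but each pair of replicates was spread. The log2 fold change was −0.36 (SE 0.09, adjusted p = 0.0158). The call was lost with TPM (adjusted p = 0.0557), without a filter (0.0595), without wild-type library 1 (−0.30, adjusted p = 0.11) and without knockout library 2 (−0.23, adjusted p = 0.0929), within a range of adjusted p from 0.00271 to 0.11 over 12 alternatives. Slc45a2 (Entrez 22293, chromosome 15, positions 11000721 to 11029233, plus strand), a melanosomal transporter gene, was at 2.82 and 2.66 FPKM in the wild type and at 2.45 and 2.23 FPKM in the knockout, and did not pass (−0.16, SE 0.08, adjusted p = 0.124).

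Gpr143 (Entrez 18241, chromosome X, positions 152781921 to 152808646, plus strand) encodes the G protein-coupled receptor of ocular albinism, which lies in the melanosome membrane and limits melanosome size. It was at 2.12 and 2.17 FPKM in the wild type and at 1.84 and 1.83 FPKM in the knockout (log2 fold change −0.15, SE 0.08, adjusted p = 0.154). These values rest on about 52 to 62 fragments per library, which gives a counting error of 12.7% to 13.8%, so a knockout mean at 85.6% of the wild-type mean was not distinguishable from no change at this depth. Limma without a variance trend called it lower (adjusted p = 0.0274, range over 11 alternatives 0.0274 to 0.483). By the same estimate Slc45a2 had 120 to 153 fragments per library and Pmel 6114 to 8009.

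Mitf (Entrez 17342, chromosome 6, positions 97807052 to 98021349, plus strand), the regulator of the other genes, stood apart from them. It was at 5.43 and 4.81 FPKM in the wild type and at 5.16 and 5.60 FPKM in the knockout, so the groups overlapped (log2 fold change 0.06, SE 0.08, adjusted p = 0.52). Over 12 alternatives the log2 fold change ran from −0.012 to 0.18 and no alternative called it. The gene has several start sites used in different cell types, and these values, summed over the gene, do not separate them.

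Ratios between the genes in a library do not depend on how the library is scaled. Pmel made up 48.9% and 49.5% of the summed FPKM of the 10 genes in the wild type and 49.1% and 49.4% in the knockout. Mlana was 10.3% of Pmel in each wild-type library and 9.96% and 10.1% in the knockout libraries, and Tyrp1 was 17.6% and 17.2% of Pmel in the wild type and 17.6% and 18.1% in the knockout. Mitf was 2.63% and 2.31% of Pmel in the wild type and 3.26% and 3.53% in the knockout, the highest relative gain of the 9 genes compared. To test such differences, log2(FPKM + 1) of Pmel was subtracted in each library before the fit over all genes, a comparison chosen after the values were seen. It treats Pmel as free of error, and 85.7% of all genes were called higher relative to Pmel. A gain relative to Pmel was thus common to most genes tested. The log2 fold change of Mitf itself (0.06) lay near their median (0.04).

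**Figure D2:**
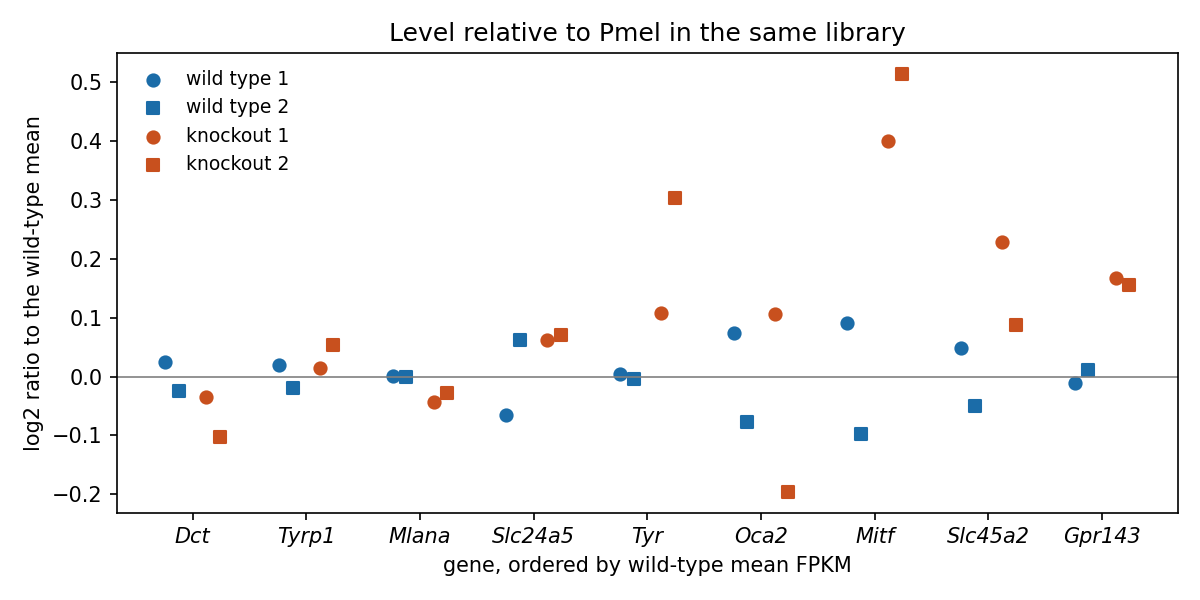
Level of each gene divided by that of Pmel in the same library, as log2 of the ratio to the wild-type mean, 1 point per library. Dct, Tyrp1, Mlana and Slc24a5 stay close to 0, whereas both knockout points of Mitf lie at or above 0.4.

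Relative to Pmel, Mitf was higher by 0.45 in the knockout group than in the wild type (SE 0.08, limma adjusted p = 0.000763). Its ratio to Pmel was higher in both knockout libraries than in both wild-type libraries. The difference kept its direction in 8 alternatives. Tyr was higher by 0.22 (adjusted p = 0.0136), but by 0.13 without knockout library 2 (adjusted p = 0.102). Slc45a2 (0.22, adjusted p = 0.0343) and Gpr143 (0.23, adjusted p = 0.026) passed. The 1 added before the log shrinks the fall of such low genes but hardly that of Pmel, which raises both differences. Both calls were lost at a pseudocount of 0.1 (0.17 for each, adjusted p = 0.194 and 0.206) and with TPM (adjusted p = 0.13 and 0.126). Slc45a2 was also lost without either wild-type library or without knockout library 1 (adjusted p from 0.051 to 0.167), and Gpr143 with each library left out (0.0703 to 0.086). The added 1 also bears on Oca2. Its plain ratio to Pmel was 2.85% and 2.57% in the wild type and 2.92% and 2.37% in the knockout. These values overlap, so the sign of its difference is not settled. The differences of Dct (−0.07, SE 0.04), Tyrp1 (0.04, SE 0.04), Mlana (−0.02, SE 0.04), Oca2 (0.03, SE 0.10) and Slc24a5 (0.09, SE 0.05) from Pmel did not pass, which does not show equal change. That of Slc24a5 was 0.14 without wild-type library 2 and passed (adjusted p = 0.037).

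The size of the falls depended on how the libraries were scaled. With the deposited TPM values 5 of the 10 genes were called lower, namely Pmel (−0.27), Dct (−0.33), Mlana (−0.30), Tyrp1 (−0.23) and Slc24a5 (−0.19), where 11.4% of all genes were. With TPM 7 genes had both knockout values below both wild-type values, against 18.3% of all genes, and Mitf had both above (11.74 and 10.26 against 12.11 and 13.03 TPM, adjusted p = 0.107). With FPKM rescaled after crystallin and erythroid genes were left out, 7 were called, Tyr (−0.24) now among them, where 31.2% of all genes were. Of all called genes 61.3% were higher with FPKM, 80.7% with TPM and 44.9% with that scaling. The median of all genes shifted to 0.16 with TPM and that of the 10 genes to −0.21. Measured from the median of all genes, which takes out most of a scaling by construction, the median of the 10 genes was −0.36 with FPKM.

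**Figure D3:**
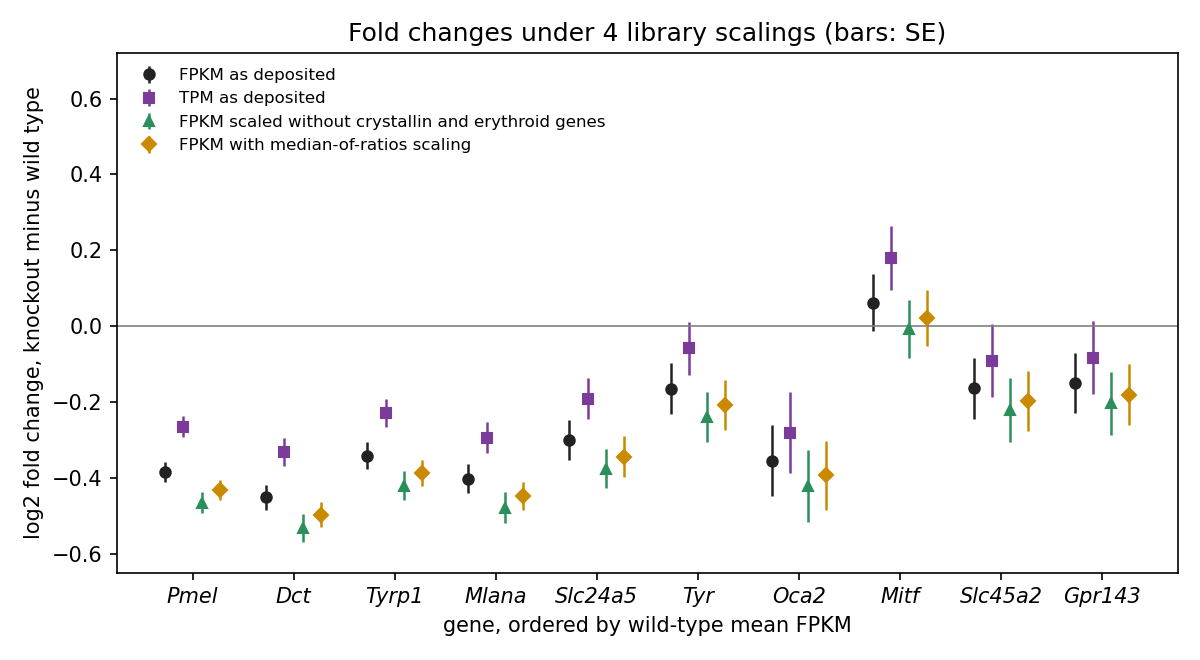
Log2 fold change of each gene, knockout minus wild type, under 4 library scalings, with SE as bars. The order of the scalings is the same for each gene, with TPM highest, and every gene but Mitf lies below 0 under all 4.

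The lists of other pigment genes held members that moved both ways. Their counts, and those of the lists below, stand beside 21.1% of all genes tested called lower and 33.5% called higher. With the rescaled FPKM 4330 of the 13887 genes were lower and 3533 higher, and with median-of-ratios scaling 3685 were lower and 3936 higher. Of 28 genes for the formation, transport and ion handling of melanosomes, 3 fell and 8 rose, with a median of −0.04. Gpnmb, a relative of Pmel also made by macrophages, fell from 19.24 and 18.88 FPKM to 11.77 and 11.70 FPKM (log2 fold change −0.66, adjusted p = 2.13e-05). Slc7a11, the cystine transporter gene used for pheomelanin, fell by 0.44 on the log2 scale, though not past the threshold without wild-type library 1 (adjusted p = 0.0677) or without knockout library 1 (0.0685). Rab32, for a small GTPase that brings enzymes to the melanosome, rose from 2.40 and 2.04 FPKM to 4.23 and 4.10 FPKM (0.68), and Tpcn2, a melanosomal cation channel gene, rose by 0.42. With the rescaled FPKM the list counted 11 lower and 3 higher, with median-of-ratios scaling 7 lower and 5 higher, and omission of single libraries brought the higher count to between 2 and 5.

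Genes of the retinal pigment epithelium outside melanin synthesis went both ways. Of 14 listed, 11 were tested, 4 fell and 4 rose, with a median of −0.01. Those that fell were Trpm3 (−0.46), a cation channel gene that hosts a microRNA, and, named after their values were seen, Rgr (−0.82), Rrh (−0.44), both opsin relatives of the visual cycle, and Rlbp1 (−0.18), the retinaldehyde-binding protein gene. The call of Rlbp1 was lost with TPM (−0.06), without wild-type library 1 and without knockout library 2. Those that rose were Serpinf1 (1.13), Ttr (0.95), Sulf1 (0.84) and Mertk (0.79). Which cells of the eye tissue carried the falls and the rises of this list was not tested. Rpe65, the isomerase gene of the mature pigment epithelium, was listed at 0, 0.06, 0.06 and 0.03 FPKM in wild-type libraries 1 and 2 and knockout libraries 1 and 2, and Lrat and Best1 were below 1 FPKM in all 4.

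Of 9 genes of neural crest melanocytes, 8 were tested, 4 rose and 1 fell, with a median of 0.26. Snai2 (1.09), Pax3 (0.83) and Sox10 (0.67), transcription factor genes of the crest, were called higher. The value of Snai2 was close to the median of the periocular mesenchyme genes described below (1.09). Trpm1, a channel gene of melanocytes and retinal bipolar cells, fell from 42.37 and 44.78 FPKM to 30.04 and 30.33 FPKM (−0.52, limma adjusted p = 4.6e-05). Pax3 was at 0.53 and 0.46 FPKM in the wild type and 1.56 and 1.75 FPKM in the knockout, so it passed the filter only through the knockout and had to differ. Kit and Ednrb, receptor genes of melanoblasts, did not pass, with fold changes of 0.12 and −0.14. Kit was called higher with TPM (0.24, adjusted p = 0.0116). Ednrb was called lower with the rescaled FPKM (−0.22, adjusted p = 0.00847), with median-of-ratios scaling (0.022), with the replicate block (0.047) and without wild-type library 1 (0.0294). Sox10 and Pax3 also mark Schwann cells and their precursors, and of 7 tested genes of that lineage 6 rose, among them Erbb3 (0.93), a neuregulin receptor gene. Of these 6, Foxd3 (0.50 and 0.74 against 1.89 and 1.53 FPKM) and Gfra3 (0.81 and 0.56 against 1.61 and 1.05 FPKM) passed the filter only through the knockout, and with the stricter filter (2 or more libraries reaching 5 FPKM) 3 of 4 tested genes rose. The exception, Fabp7, fell by 1.07 on the log2 scale. It is also a gene of retinal progenitors. Which cells of the eye tissue carried the changes of the melanocyte and Schwann cell lists was not tested. Of 12 regulators and relatives of MITF, 10 were tested, 7 rose and 2 fell. Pax6, the paired-box regulator of eye formation, fell from 160.94 and 158.43 FPKM to 107.76 and 110.97 FPKM (−0.54). Otx1 (0.53) and Tfeb (0.57), the latter a relative of Mitf, rose. With the rescaled FPKM 3 of this list rose, and 3 without either knockout library.

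**Figure D4:**
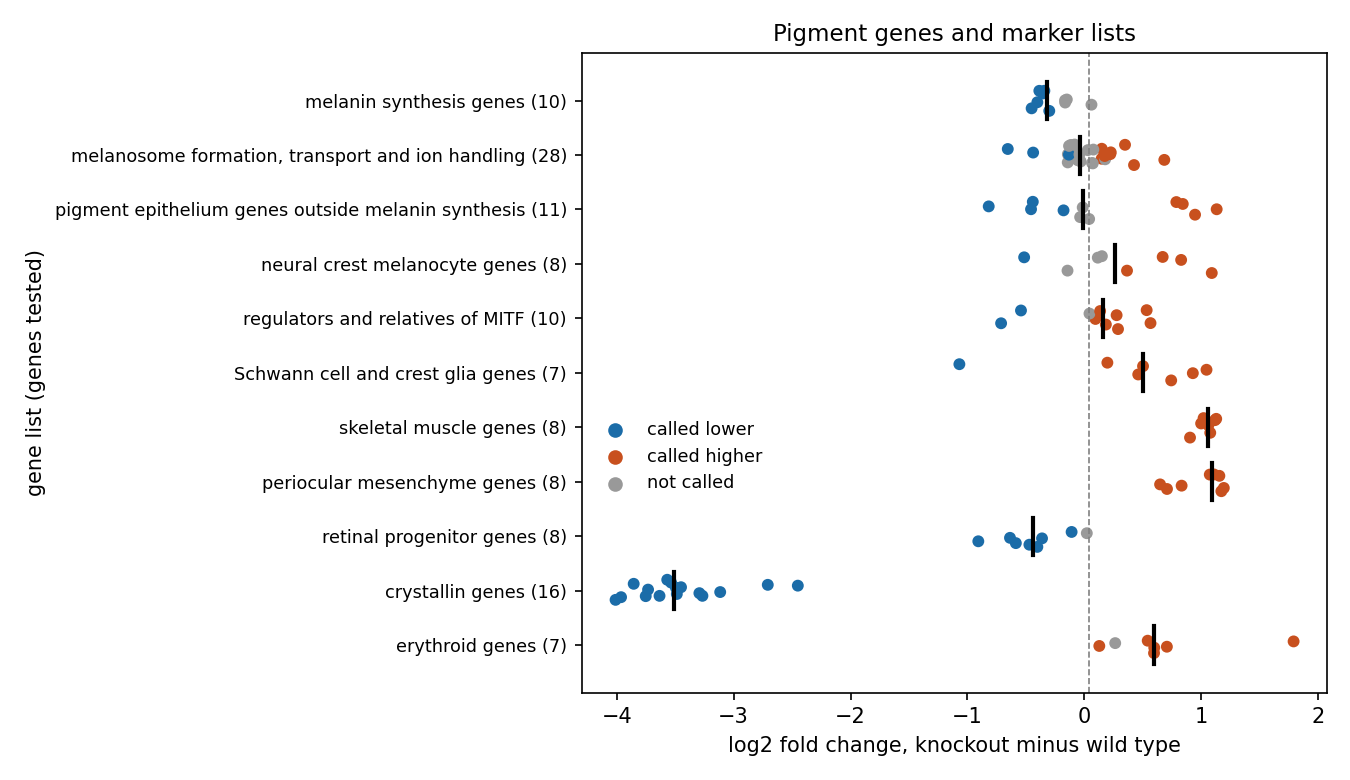
Log2 fold change of each tested gene by list, knockout minus wild type, with genes called lower in blue, called higher in orange and not called in grey. Black bars are list medians and the dashed line is the median of all genes tested. The melanin synthesis genes (median −0.32) lie near the retinal progenitor genes (−0.44) and far from the crystallins (−3.51).

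Other cell types moved with the knockout in the same libraries. All 8 skeletal muscle genes rose (median 1.06, summed level 1606 and 1671 FPKM in the wild type and 3324 and 3387 FPKM in the knockout). So did all 8 genes of periocular mesenchyme (median 1.09, 1345 and 1323 against 2929 and 2948 FPKM). Of 7 tested erythroid genes 6 rose (median 0.60), among which Hbb-y passed the filter only through the knockout. The call of Alas2 (0.13) was lost with the rescaled FPKM (0.05, limma adjusted p = 0.29) and with median-of-ratios scaling (0.083, limma adjusted p = 0.0786). Of 8 retinal progenitor genes 7 fell (median −0.44, 1212 and 1229 against 764.8 and 769.0 FPKM), though Rax (−0.11) did not keep its sign with TPM, and all 16 crystallins fell (median −3.51). None of the listed muscle or mesenchyme markers was at 0 in a library. The part of this shift in tissue make-up in the fall of the melanin synthesis genes was not tested.

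Genes outside the 10 with the most similar pattern were sought among 10600 genes averaging at least 5 FPKM, by the root mean square distance of their log2 values, centred on the wild type, from the median profile of the 10 genes over the 4 libraries. The nearest were Eml5, Col23a1, Braf, Ezh2 and Rtl6, at distances from 0.0044 to 0.0073. With 4 libraries this likeness is common, as 471 genes lay within 0.05.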

How the data were processed

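Total RNA of 4 eye tissue libraries was extracted with Trizol and sequenced with Illumina libraries, per the labels' protocols. The authors deposited FPKM values per gene and library, and TPM values that rescale them to 1 sum per library, per the file headers. Tools named in the submitters' processing notes, with no roles, are Cufflinks, DESeq, HISAT2 and TopHat, beside the builds GRCm38 and GRCh38. No annotation, filter or strand setting is named in the sources. FPKM is relative to all fragments of a library, so a fall in abundant transcripts raises all others.

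Of the 18702 gene numbers, 18647 (99.7%) were in the RefSeq table of GRCm38. Positions and exon overlaps come from GENCODE M21 (GRCm38). Low FPKM values of genes with 1 annotated transcript tended to lie near steps of 1 fragment, which gave an approximate depth (58.1% to 64.8% of 321 to 343 values per library within 0.15 of a whole number, chance 30.0%). This is too few to recover counts, and a count test was not possible. Fragment numbers per gene use the longest transcript and cover counting error only. The mean chi-square per gene between replicates was 2.04 in the wild type and 1.87 in the knockout (medians 0.65 and 0.52). Counting noise alone gives 1.0 (median 0.45). Both libraries of a group were kept as separate replicates, although spread above counting noise does not show that they come from different embryos.

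Genotype was the only term of a limma 3.58.1 fit (R 4.3.3, variance trend, 2 residual and 4.89 prior degrees of freedom) on log2(FPKM + 1) of the genes whose mean reached 1 FPKM. The code was tested on simulated data. Fold changes on this scale understate changes at low levels. The members and the 10 gene lists (121 genes) were chosen with earlier results of these data known. Named genes were the members, Anp32b, Pax6, up to 4 genes with the lowest p from each pigment list, up to 2 from the other lists and the 5 nearest in pattern, and others were chosen after their values were seen. Some genes that this rule selects are not reported here. Figures were drawn with matplotlib 3.10.9 in Python 3.11.15.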

Additional observations from a re-analysis of the deposited data

How the results depend on the processing

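The alternatives were a pseudocount of 0.1, no filter, a stricter filter (5 FPKM or more in 2 libraries or more), the replicate block, 2 rescalings of FPKM, TPM, no variance trend and the omission of each library. Over these 12 settings between 5 and 7 of the 10 genes were called lower and 0 higher. Over all genes, TPM gave 1721 lower and 7182 higher, against 2932 and 4654 with FPKM, and the sign of Rax turned (0.011). Under the stricter filter Slc45a2 and Gpr143 were not tested. With the replicate block 3047 genes were lower and 4781 higher, and Tyr passed (adjusted p = 0.0455). The numbers pair nothing beyond a label: the differences between replicates 1 and 2 of the 2 groups had a correlation of 0.044 over 13887 genes. With 1 library left in a group, it is assumed to vary like the other group. Depth limits Gpr143 and Slc45a2 most.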
